A study of Mus musculus with 12 samples.

Results

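The 42 genes described here are interferon-stimulated effector genes outside the guanylate-binding protein, *Ifit*, *Oas* and PYHIN families, chosen as a list of gene symbols. All 42 were found by name among 50457 genes listed for brains of female C57BL/6J mice with experimental autoimmune encephalomyelitis (EAE), a model of multiple sclerosis. By the sample labels, 12 brains fall into 4 groups, with 3 asymptomatic and 4 symptomatic mice under EAE/CBD and with 3 asymptomatic and 2 symptomatic mice under EAE/CO. The mice came from 2 cohorts, A and B. Under EAE/CBD, cohorts A and B gave 2 and 1 asymptomatic and 2 and 2 symptomatic mice. Under EAE/CO they gave 2 and 1 asymptomatic and 1 and 1 symptomatic mice. The study's methods count 1 mouse of cohort B, labelled EAE/CBD symptomatic, as EAE/CO symptomatic instead, and which group mean holds this mouse cannot be told apart from the values used. Every mouse had been immunised with MOG35-55 peptide in complete Freund's adjuvant with heat-killed mycobacteria, without pertussis toxin. From the day after immunisation, EAE/CBD mice were given cannabidiol (CBD) by mouth over 5 days, 75 mg/kg per dose in corn oil (CO), and EAE/CO mice were given the oil alone. Whole brains were taken on Day 18, and a mouse was symptomatic with any clinical score above 0. No unimmunised mice were analysed here.

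Interferons bind receptors that act through Janus kinases on STAT and IRF transcription factors. Type I interferon leads to binding at interferon-stimulated response elements (ISRE) and interferon-gamma to binding at gamma-activated sites (GAS). The genes induced in this way encode proteins that sense foreign nucleic acid, block viral entry, replication and budding, modify other proteins with ISG15, ubiquitin or ADP-ribose, and restrain the response itself. In the brain, microglia, astrocytes, endothelium and leukocytes that enter from blood can all express them.

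The measurement used for each gene is the larger of the 2 group means that the authors deposited with each comparison of asymptomatic and symptomatic mice, called the level below. Every gene therefore has 1 level for the EAE/CBD mice and 1 for the EAE/CO mice. A level has no replicates, no error and no sample size of its own, and it does not say whether the asymptomatic or the symptomatic mice had the larger mean. It is an upper limit for the mean of the other group. No group difference was tested for that reason, and all values below are descriptions. The unit of the level is not stated. Values per kilobase and per 1000000 reads, multiplied by gene length, would sum to about 1000000. With the length of all exons of a gene the sums were 1857755 for EAE/CBD and 1828370 for EAE/CO over 40303 genes, and with the canonical transcript, a length tried after the first result had been seen, they were 934921 and 920136. The answer thus depends on the length used and the scale was not settled, so an order of levels between different genes is that of the deposited values, which may or may not be per length. The ratio of both levels of 1 gene does not depend on its length.

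Brain RNA was recognisable in both sets. The neuronal marker *Snap25* had levels of 687.84 (EAE/CBD) and 767.3 (EAE/CO), the oligodendrocyte marker *Mbp* 529.2 and 381.31, and the liver marker *Alb* was listed at 0 and 0.13. T cell markers had a summed level of 5.92 and 6.64 over 4 genes, and B cell markers 0.31 and 0.24 over 2 genes. All 37 mitochondrially encoded genes were listed at 0, so a gene listed at 0 was not taken as absent.

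The promoters of the genes on which the description turns are shown first, as the 250 bases before and 50 bases after the transcription start in RefSeq (build GRCm38.p6, whereas gene positions elsewhere are on GRCm39). A promoter was held for 32 of the 42 genes. Those not matched were *Rtp4*, *Dhx58*, *Mx1*, *Mx2*, *Parp9*, *Parp10*, *Parp14*, *Usp18*, *Ifi27l2a* and *Zbp1*. *Isg15* is shown because its ratio of EAE/CO to EAE/CBD levels was the largest, *Ifitm3* and *Bst2* because they had the highest levels of all members, and *Slfn8* and *Slfn9* as neighbouring copies whose levels lay far apart. Capitals mark matches to the ISRE core (GAAA, any 2 bases, GAAA, or its reverse complement) and to the GAS core (TTCNNNGAA, which is its own reverse complement), also where these overlap.
Isg15 (GRCm38.p6 chr4:156200769-156201068, minus strand): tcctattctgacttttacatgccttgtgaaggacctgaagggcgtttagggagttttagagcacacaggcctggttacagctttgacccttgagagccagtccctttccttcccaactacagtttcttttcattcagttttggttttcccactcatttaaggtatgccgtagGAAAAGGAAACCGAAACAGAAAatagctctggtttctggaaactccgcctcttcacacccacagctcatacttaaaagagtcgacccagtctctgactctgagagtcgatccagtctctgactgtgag
Ifitm3 (GRCm38.p6 chr7:141010695-141010994, minus strand): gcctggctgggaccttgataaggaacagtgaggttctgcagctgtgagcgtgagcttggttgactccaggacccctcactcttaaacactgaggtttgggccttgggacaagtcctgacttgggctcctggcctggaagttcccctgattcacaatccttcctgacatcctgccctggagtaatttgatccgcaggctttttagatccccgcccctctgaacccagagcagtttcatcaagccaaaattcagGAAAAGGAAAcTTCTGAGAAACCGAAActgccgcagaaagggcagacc
Bst2 (GRCm38.p6 chr8:71537423-71537722, minus strand): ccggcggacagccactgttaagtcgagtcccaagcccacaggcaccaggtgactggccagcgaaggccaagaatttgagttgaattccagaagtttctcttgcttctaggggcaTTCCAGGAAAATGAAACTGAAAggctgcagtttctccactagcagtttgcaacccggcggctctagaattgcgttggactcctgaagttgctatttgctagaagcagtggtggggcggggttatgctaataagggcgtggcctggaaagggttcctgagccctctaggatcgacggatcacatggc
Slfn8 (GRCm38.p6 chr11:83020761-83021060, minus strand): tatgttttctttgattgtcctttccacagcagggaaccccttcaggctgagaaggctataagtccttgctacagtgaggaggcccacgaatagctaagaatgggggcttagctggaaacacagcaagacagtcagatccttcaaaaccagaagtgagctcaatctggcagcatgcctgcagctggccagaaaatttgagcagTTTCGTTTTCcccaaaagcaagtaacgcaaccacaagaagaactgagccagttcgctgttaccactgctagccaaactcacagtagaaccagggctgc
Slfn9 (GRCm38.p6 chr11:82991781-82992080, minus strand): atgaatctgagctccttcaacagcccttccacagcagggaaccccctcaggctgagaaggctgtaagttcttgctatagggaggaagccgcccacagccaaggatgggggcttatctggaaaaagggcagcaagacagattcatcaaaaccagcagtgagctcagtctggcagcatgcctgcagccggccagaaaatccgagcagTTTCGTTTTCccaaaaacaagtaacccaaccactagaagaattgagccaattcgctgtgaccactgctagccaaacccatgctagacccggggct

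The ISRE core was present in the promoters of 14 of the 32 members, or 43.8%, against 3.99% of the 27025 genes with a promoter of the same length. The members were listed as interferon-stimulated, so a larger share can follow from the list itself and is not a result about EAE. The 14 were *Bst2*, *Eif2ak2*, *Ifih1*, *Ifitm2*, *Ifitm3*, *Isg15*, *Parp11*, *Phf11b*, *Rsad2*, *Slfn5*, *Slfn8*, *Slfn9*, *Trim21* and *Trim30a*. With a C required after the core, 10 members (31.2%) and 0.944% of all genes matched. The GAS core was found in 8 members (25.0%) and 9.55% of all genes, in *Adar*, *Bst2*, *Eif2ak2*, *Ifi35*, *Ifitm3*, *Isg20*, *Parp11* and *Samhd1*. Under the stricter form TTCCNGGAA only *Bst2* was left (3.12% of members, 1.35% of all genes). *Isg15* carried 3 overlapping ISRE matches, whose first bases lay at positions -78, -72 and -66 from the start. In *Bst2* a GAS match at -136 ran into ISRE matches at -130 and -124. In *Ifitm3* the 2 ISRE matches and the GAS match lay just after the start, at positions 3, 20 and 14. *Trim21* had its 2 ISRE matches after the start as well, at positions 14 and 20. The match in *Slfn8* appeared in both of its overlapping windows and has the same letters, TTTCGTTTTC, as that in *Slfn9*. A match describes letters in this window and not binding, and a promoter without one may hold an element elsewhere.

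**Figure D1:**
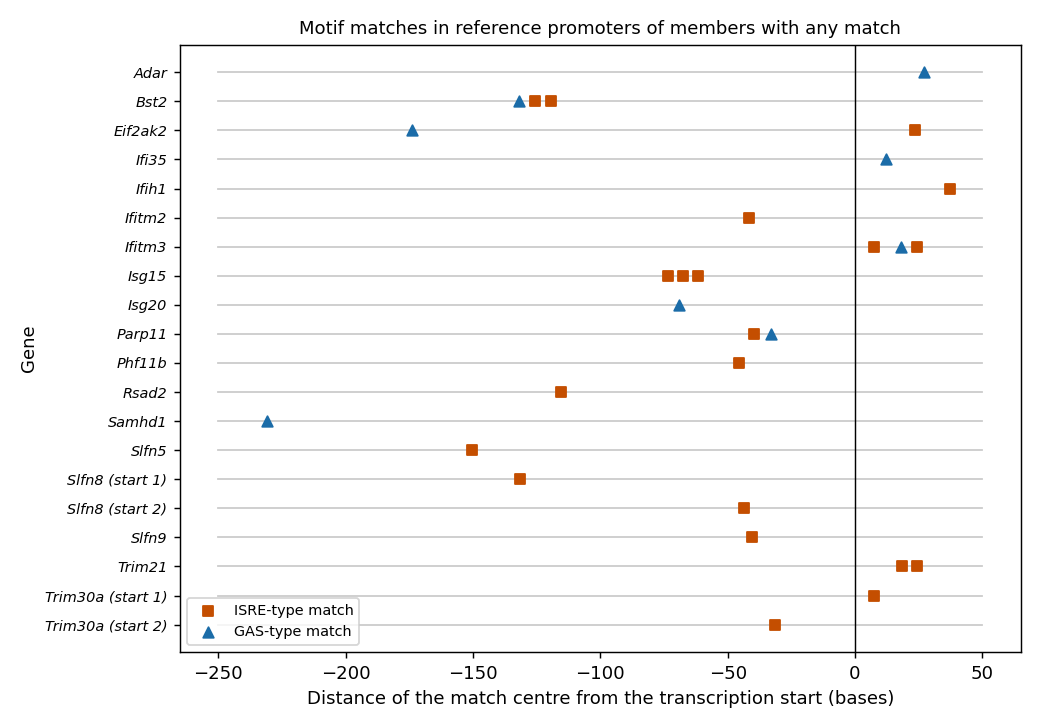
Positions of ISRE-core (squares) and GAS-core (triangles) matches in the RefSeq promoters of the members that hold any. The axis gives the distance of the centre of the match from the transcription start in bases. Grey lines span the window of 250 bases before to 50 after the start. Each window with a match has its own line, and windows without a match are not drawn. *Isg15* has 3 ISRE matches side by side before the start, whereas both ISRE matches of *Ifitm3* and *Trim21* lie after it.

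Across the 42 genes, levels spanned from 0 to 184.17 and most genes were of low to middle abundance. The median level over all 42 members was 4.11 in EAE/CBD and 4.88 in EAE/CO mice, and the median of all genes listed above 0 was 4.11 and 4.06 (17825 and 17625 genes). These medians are over unlike sets, since that of the members includes *Mx1* and *Mx2*, listed at 0. In EAE/CO mice, 11 members had a level of at least 10 and 27 a level between 1 and 10. *Isg20* and *Slfn9* stayed below 1 in both sets, and *Mx1* and *Mx2* were listed at 0 in both. The 5 highest members were *Ifitm3*, *Bst2*, *Isg15*, *Ifi27l2a* and *Ifitm2* in EAE/CO mice.

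The level, as the larger of 2 group means, was higher for EAE/CO than for EAE/CBD mice in most members. None of the members is among the genes that the paper lists as changed between CBD- and vehicle-treated mice of like clinical state. Of the 38 members whose level reached 1 in either set, 33 were higher in EAE/CO mice (86.8%) and 4 were lower (10.5%), whereas of all 12927 genes that reached it 42.6% were higher and 56.9% lower. *Slfn4*, counted as higher, reached 1 only in EAE/CO mice, with levels of 0.8 and 1.01. The median ratio of EAE/CO to EAE/CBD levels was 1.12 over the 40 members with both levels above 0, with quartiles of 1.04 and 1.27. Over the genes among those 12927 that had both levels above 0 it was 0.974, with quartiles of 0.878 and 1.08. For the members that reached 1 the median ratio was 1.12 as well. Differences of at least 1.5-fold were rare: 3 members (*Isg15*, *Phf11d* and *Usp18*) were higher by that much in EAE/CO mice and 0 were lower, beside 1.96% and 3.57% of all genes. The 1.5-fold limit was chosen after the members' levels had been seen. Of the 40 members, 24 had a ratio above the upper quartile of all genes and 1 (*Cmpk2*) a ratio below the lower quartile. These ratios set 2 separately tabulated values side by side, without an error. Both levels of a gene may come from mice of different clinical state. The level alone does not name the group with the larger mean, and the authors' fold changes were not used. The treatment cannot be told apart from clinical state and score, the mice chosen, the mix of cohorts, the number of mice per mean or the sampling of the tissue. In bulk tissue, fewer cells of a type and less RNA per cell cannot be told apart either. Other markers moved between the sets too: the summed level of 3 astrocyte markers was 292.76 in EAE/CBD and 214.19 in EAE/CO mice, that of 2 oligodendrocyte markers 589.98 and 429.59, that of 3 microglia markers 48.83 and 42.21, that of 4 neuron markers 1084.55 and 1188.34, and that of 3 monocyte markers 29.18 and 36.25. Single markers did not all follow their sum: *Ccr2* had 2.38 and 1.85 whereas *Ly6c2*, another monocyte marker, had 23.38 and 29.83, *Aldh1l1* of the astrocyte markers had 28.78 and 30.87, and *Tubb3* of the neuron markers had 279.83 and 262.27. The skeletal muscle marker *Acta1* had the largest ratio of the markers, 2.6, with levels of 2.59 and 6.73. The 2 haemoglobin genes summed to 1070.14 and 876.61, and 2 endothelial markers to 44.61 and 42.28. Apart from the liver marker *Alb*, listed at 0 in EAE/CBD mice, no listed marker was at 0. The part of the markers in the ratios was not tested.

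**Figure D2:**
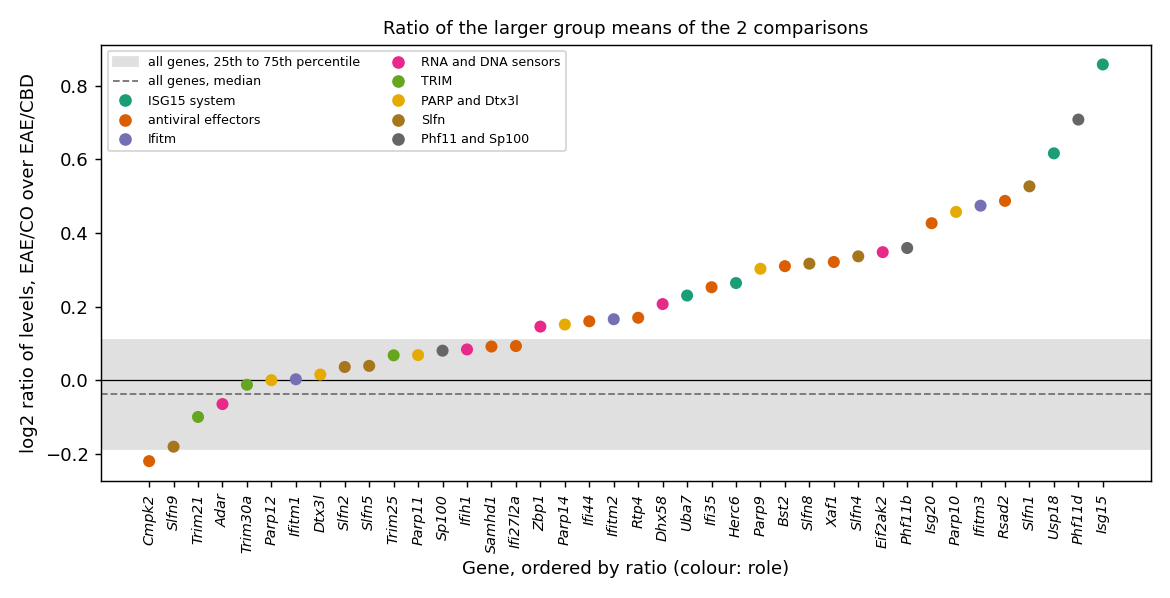
Log2 ratio of the level in EAE/CO mice over that in EAE/CBD mice for the 40 members with both levels above 0. Points are coloured by role. The band spans the 25th to 75th percentile of genes that reached a level of 1 in either set and had both levels above 0. The dashed line is their median of -0.04. Ratios run from -0.22 for *Cmpk2* to 0.86 for *Isg15*, and 24 members lie above the band.

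All 4 members of the ISG15 system were higher in EAE/CO mice, with a median ratio of 1.36. *Isg15* encodes a ubiquitin-like protein that is attached to other proteins and also released from cells. Its level was 31.59 in EAE/CBD and 57.23 in EAE/CO mice, a ratio of 1.81 and the largest among the members. *Usp18*, the protease that removes ISG15 from its targets and dampens signalling at the type I interferon receptor, had levels of 5.37 and 8.23 (ratio 1.53). *Uba7*, the enzyme that activates ISG15 for transfer, had 6.31 and 7.4 (ratio 1.17). *Herc6*, which in mice acts as the ISG15 ligase, was the lowest at 3.19 and 3.83 (ratio 1.2). In both sets the deposited level of the modifier was above those of the enzymes that add and remove it.

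**Figure D3:**
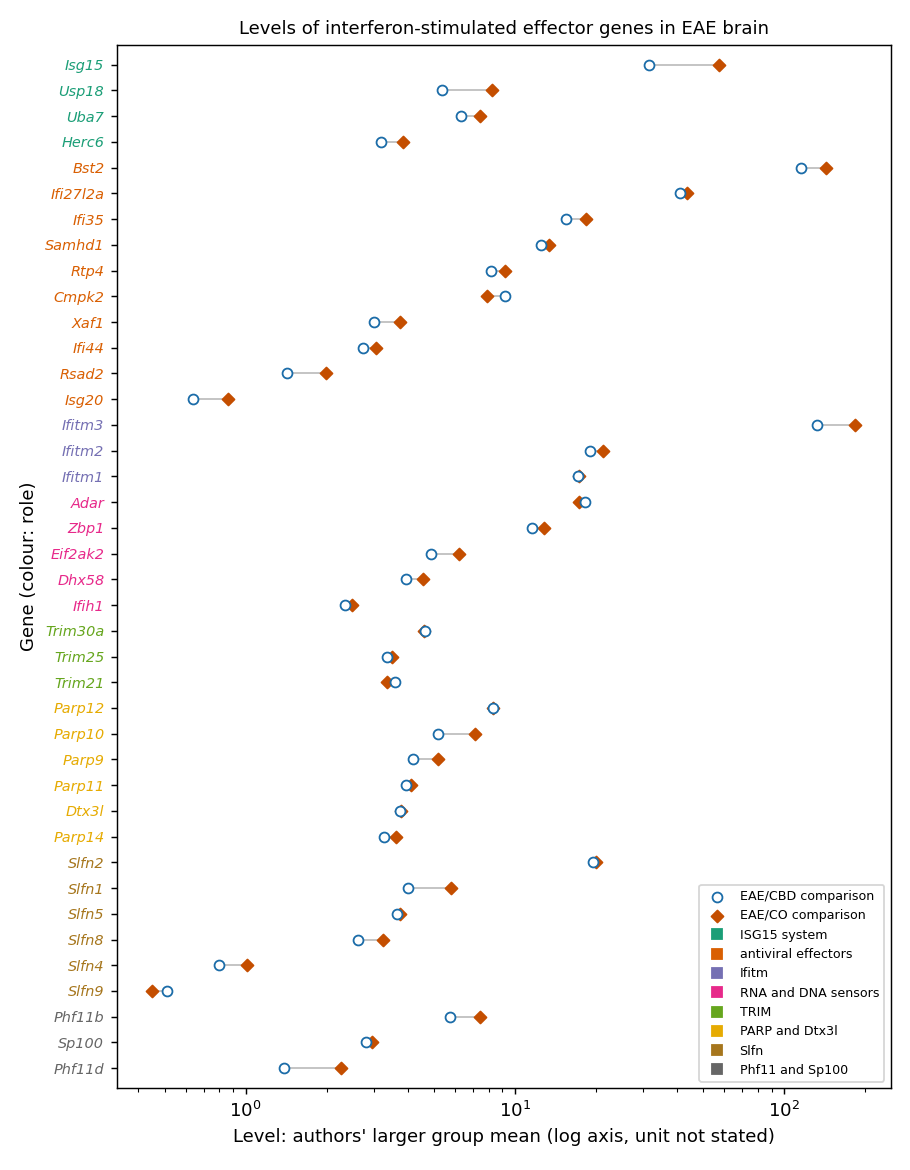
Levels of the 40 members listed above 0, on a log axis in the unstated unit of the deposited group means, for EAE/CBD mice (open circles) and EAE/CO mice (filled diamonds), with a grey line joining both values of a gene and label colours for the roles. *Ifitm3* and *Bst2* exceed 100 in both sets, and the widest gap on the log axis is that of *Isg15*, from 31.59 to 57.23.

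Of the 12 genes grouped here as antiviral effectors, without the *Ifitm* genes, *Bst2* had the highest level. It encodes tetherin, which holds budding virions at the cell surface, and its level was 115.74 in EAE/CBD and 143.45 in EAE/CO mice (ratio 1.24). *Rsad2*, which encodes viperin, an enzyme that makes a chain-terminating nucleotide, had only 1.42 and 1.99 (ratio 1.4). Its neighbour *Cmpk2*, a mitochondrial nucleotide kinase gene, had 9.2 and 7.9 (ratio 0.859), the lowest ratio of the 40. Both lie on chromosome 12, *Rsad2* from 26492742 to 26506451 on the minus strand and *Cmpk2* from 26519121 to 26529836 on the plus strand, and are transcribed away from each other across 12669 bases. Thus the 2 neighbours differed in level and in the direction of their ratios. Only *Rsad2* of this pair had an ISRE match in the window searched, and a link to level or ratio was not tested.

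*Samhd1*, which degrades deoxynucleotides, had levels of 12.54 and 13.36, and *Isg20*, an RNA exonuclease gene, 0.64 and 0.86. *Ifi35* had 15.48 and 18.44, *Xaf1* 3.01 and 3.76, and *Ifi44* 2.73 and 3.05, in EAE/CBD and EAE/CO mice respectively. *Rtp4* had 8.18 and 9.2, and its listed span overlaps *Masp1* on the other strand by 1152 bases. The level of *Ifi27l2a* was 40.99 and 43.71, and it overlaps *Ifi27*, at 68.16 and 76.52, on the other strand by 6057 bases, so reads of the 2 genes may have been shared. For the rest, *Mx1* and *Mx2*, dynamin-like GTPase genes on chromosome 16, were listed at 0 in both sets. C57BL/6 mice carry defective alleles of both.

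The *Ifitm* genes encode small membrane proteins that hinder the fusion of viruses with endosomes. *Ifitm3* had the highest level of all 42 genes, 132.61 in EAE/CBD and 184.17 in EAE/CO mice (ratio 1.39), above 97.2% and 98.1% of the genes listed above 0. *Ifitm2* had 19.0 and 21.31 (ratio 1.12), and *Ifitm1* 17.25 and 17.28 (ratio 1.0). The 3 genes share 55.9 kb of chromosome 7, from 140534750 to 140590657, and *Ifitm3* had the highest level and ratio of the 3 in these tables. The numbers of ISRE matches were 2 for *Ifitm3*, 1 for *Ifitm2* and 0 for *Ifitm1*, and a link to level or ratio was not tested. Aligned coding bases were 81.5% to 82.6% identical between pairs of these genes, so some reads could have been assigned to the wrong copy.

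Sensors of foreign RNA and DNA were present at low to middle levels. *Ifih1*, which encodes the double-stranded RNA sensor MDA5, had 2.35 in EAE/CBD and 2.49 in EAE/CO mice, and *Dhx58*, for the related helicase LGP2, 3.96 and 4.57. *Eif2ak2*, the gene of the kinase PKR that stops translation upon binding double-stranded RNA, had 4.88 and 6.21 (ratio 1.27), the largest ratio of the sensors. *Zbp1*, a sensor of Z-form nucleic acid that can start necroptosis, had 11.59 and 12.82. *Adar*, whose product edits adenosine to inosine in double-stranded RNA and thereby keeps self RNA from being sensed, was the most abundant at 18.19 and 17.39. It was also the only 1 of the 5 with a lower level in EAE/CO mice (ratio 0.956).

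The levels of the TRIM ubiquitin ligase genes were close to each other in both sets. *Trim21*, a cytosolic antibody receptor gene, had 3.59 and 3.35, *Trim25*, whose product aids RIG-I signalling, 3.34 and 3.5, and *Trim30a* 4.63 and 4.59, so that 2 of the 3 were lower in EAE/CO mice. Their ratios lay between 0.933 and 1.05. *Trim21* and *Trim30a* had ISRE matches and *Trim25* had none in the window searched.

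Of the ADP-ribosyltransferase genes and *Dtx3l*, 5 were higher in EAE/CO mice and *Parp12* had 8.33 in both sets. *Parp10* had the largest ratio, with levels of 5.18 and 7.11 (ratio 1.37). *Parp9* and *Dtx3l* encode partners of a single ubiquitin ligase complex and overlap head to head on chromosome 16 by 558 bases. *Parp9* had levels of 4.2 and 5.18 (ratio 1.23) and *Dtx3l* 3.74 and 3.78 (ratio 1.01), and reads from the overlap could have been counted for either. *Parp14*, nearby on the same chromosome, had 3.26 and 3.62, and *Parp11*, on chromosome 6, had 3.93 and 4.12. Levels within this group varied by less than 3-fold in either set.

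The 6 Schlafen genes lie within 238.9 kb of chromosome 11, from 82842175 to 83081042, and differed widely in level. *Slfn2*, which is needed in mice to keep T cells quiescent, had 19.48 in EAE/CBD and 19.97 in EAE/CO mice. *Slfn1* had 4.02 and 5.79 (ratio 1.44), the largest ratio of the family, and *Slfn5* 3.66 and 3.76. *Slfn8* had 2.61 and 3.25 (ratio 1.25), whereas *Slfn9* had 0.51 and 0.45 (ratio 0.882) and *Slfn4* 0.8 and 1.01. *Slfn8* and *Slfn9* have coding sequences of equal length, 2730 bases, that are 92.7% identical. Their opposite ratios are uncertain, since reads could have been split between the copies.

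*Phf11d*, a PHD finger gene, had 1.39 in EAE/CBD and 2.27 in EAE/CO mice (ratio 1.63), the second-largest ratio of the members. *Phf11b*, 6029 bases away on chromosome 14, had 5.77 and 7.4 (ratio 1.28), and 90.2% of aligned coding bases are identical between them. *Sp100*, a component of PML nuclear bodies, had 2.8 and 2.96 (ratio 1.06).

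Levels and ratios of members with and without an ISRE match overlapped. The 14 with a match had a median ratio of 1.18 and a median EAE/CO level of 4.36, and the 18 without a match 1.09 and 4.81. Log2 ratios ran from -0.18 to 0.86 with a match and from -0.22 to 0.71 without. Of the 4 members with 2 or more matches in a promoter, *Isg15*, *Bst2* and *Ifitm3* had levels above 50 in EAE/CO mice and *Trim21* had 3.35.

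Genes upstream in the pathway differed by class. Of 15 genes for ligands, receptors, kinases, transcription factors and feedback, 13 had both levels above 0. Of these, 7 were higher and 6 lower in EAE/CO mice, with a median ratio of 1.0. For comparison, 42.2% of the 17300 genes with both levels above 0 were higher. Among ligands, *Ifng* had levels of 0.62 and 0.97 (ratio 1.56), *Ifnb1* was listed at 0 and 0.01, and *Ifna4* at 0 in both. Receptor and kinase genes had ratios between 0.877 (*Jak1*) and 1.02 (*Ifnar2*). The transcription factor gene *Irf1* had nearly equal levels, 15.91 and 15.92. *Irf7*, itself induced by interferon, had 24.39 and 34.12 (ratio 1.4), *Stat2* 12.96 and 15.07 (ratio 1.16), and *Irf9* 13.16 and 14.69 (ratio 1.12). *Socs1*, a feedback inhibitor of the Janus kinases, had 5.98 and 7.38 (ratio 1.23).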

How the data were processed

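RNA of 12 brains was sequenced by the study, 3, 4, 3 and 2 per group by the labels. The authors trimmed paired-end reads, mapped them to GRCm39 and compared groups with a negative binomial model in CLC Genomics Workbench (version not given in the sources used here). GRCm38 and GRCm39 both appear in the submitters' processing notes. Of 40303 genes matched by name to GENCODE M39, 99.95% had the same place and strand. The deposited tables hold, beside fold changes, p-values and FDRs of the authors' own comparisons, which were not used, the larger of the 2 group means. The tables of EAE/CBD against EAE/CO, which list only genes past the authors' threshold, were not used. No values per mouse and no read depth were used, so precision is unknown.

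With pandas 2.3.3 and numpy 2.4.6, levels of the EAE/CBD and EAE/CO tables were compared as ratios without a pseudocount, each mean having been made within its own comparison. Counts over all genes took those that reached 1 in either table. Both listings of the EAE/CO comparison hold the same levels (0 genes differ). Motifs were searched on both strands of the RefSeq promoters (32 members, 32851 promoters, GRCm38.p6). Coding identity came from global alignment (Biopython 1.88) of GENCODE M39 canonical transcripts, in place of a protein alignment and chosen after the data were seen. Steps were checked on made-up data with known answers. Members, roles, motifs and alternatives were chosen with earlier results of these data known. A pathway gene and a marker gene were left out of their lists and are not reported here. Members are named by role, with the extremes of level and ratio in full.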

Additional observations from a re-analysis of the deposited data

How the results depend on the processing

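The count of members with a higher level in EAE/CO mice was 33 of 38 as reported. It was 34 of 40 at a minimum level of 0.5, beside 42.4% of all genes, and 34 of 40 without a minimum, beside 42.2%. It was 35 of 38 with equal totals and 35 of 38 with the median ratio of all genes set to 1. From the listing in the other direction it was 33 of 38. At a minimum level of 5 the count was 18 of 21 members, because fewer members qualify, beside 44.5% of all genes. *Slfn1*, *Parp9* and *Eif2ak2*, counted as higher, reached 5 only in EAE/CO mice. The median log2 ratio of 0.17 became 0.15 with a pseudocount of 1, 0.2 with equal totals and 0.21 with the median ratio of all genes set to 1, and was 0.17 with a pseudocount of 0.1, with a minimum level of 1 and from the other listing. Equal totals moved the share of all genes that were higher from 42.6% to 48.8%, and a median ratio of 1 moved it to 50.1%. Without the 6 members that overlap another gene listed above 0, an alternative chosen after seeing the data, the median log2 ratio was 0.19 and 28 of 32 members were higher. ISRE matches were found in 10 members with the stricter motif (0.944% of all genes) and 13 in the last 200 bases (2.39%), instead of 14 (3.99%). GAS matches were found in 1 member with the stricter motif (1.35% of all genes) and 6 in the last 200 bases (6.27%), instead of 8 (9.55%). Protein identity was not run. No paired analysis was possible because the values carry no mouse or replicate number. Replicates could not be left out, because each level is a mean over mice. Levels are given to 2 decimals, which limits the ratios of genes below 1, so that of *Slfn9* lies between 0.864 and 0.901 from rounding alone.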
